A study of Mus musculus with 10 samples.

Results

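Chromatin at 59 lysosome genes was examined in cultured mouse neural stem and progenitor cells (NSPCs) that were quiescent, activated or returned from quiescence to proliferation. The 59 genes were the 36 autosomal genes of a list of 37 lysosomal hydrolases, membrane proteins and regulators, together with the 23 protein-coding autosomal genes whose symbol starts with Atp6v, out of 20780 protein-coding autosomal genes in the GENCODE M21 annotation of mm10. Tfe3, the remaining listed gene, lies on the X chromosome. ATAC-seq, which reads accessible DNA by the insertions of the Tn5 transposase, was done on 2 libraries of each state, and ChIP-seq for H3K4me3, a histone mark of active promoters, on 1 library of the quiescent and 1 of the activated state. All cells came from brains of C57BL/6 mice at postnatal day 5 and were grown as early-passage cultures, which hold a mixture of stem and progenitor cells. Activated NSPCs were kept with FGF2 and EGF at 20 ng/ml each. Quiescent NSPCs had FGF2 at 20 ng/ml and BMP4 at 25 ng/ml without EGF, for 4 days per the labels and for a shorter time per the study's ATAC-seq methods. Reactivated NSPCs went through BMP4 treatment of 4 days and then had FGF2 and EGF at 20 ng/ml each for 9 to 12 days. Quiescence here was therefore induced in a dish by BMP4 with removal of EGF, and the 2 changes of medium cannot be told apart.

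Lysosomes are acidic organelles that degrade proteins, glycans and lipids delivered by endocytosis and autophagy. The vacuolar ATPase (V-ATPase) pumps protons into them, with a cytosolic V1 sector that hydrolyses ATP and a membrane V0 sector that carries the protons. Many lysosome genes carry a short palindromic E-box element, known as CLEAR, that is bound by TFEB and its relatives, and quiescent neural stem cells are known for large lysosomes.

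Each library was available as a list of peaks with a fold enrichment of reads over the local background. The ATAC-seq lists held 47323 to 60881 peaks in quiescent and activated NSPCs, and 106586 and 107137 in reactivated NSPCs, whose peak names mark the reads as downsampled before peak calling and follow another scheme, so that state and batch cannot be told apart for the reactivated libraries. The lowest pileup that was called was 16 to 25 reads, which corresponds to a fold enrichment of 1.99 to 2.43 over the library-wide background. Peaks are called against the local background, and the lowest fold enrichment of a called peak was 1.09 to 1.33 by library. A missing peak is therefore not an absence of accessibility. All 8 markers listed for NSPCs (among them Sox2, Nes and Pax6) had a promoter peak in all 6 libraries, whereas 6 of 9 microglial markers had none in any library and P2ry12 had 2.06 in quiescent replicate 2 alone, 6.23 and 4.42 in the activated and 9.61 and 9.58 in the reactivated libraries. Of the 5 astrocyte markers, 1 had a peak in all 6 libraries and 4 in some. Of the 5 neuron markers, 4 (Snap25, Syt1, Tubb3 and Map2) had a peak in all 6, with library medians of 7.13 to 16.3 in fold enrichment against 6.39 to 9.07 for the NSPC markers, so promoter peaks do not separate these cell types. Of 4 oligodendrocyte markers 2 had no peak in any library and 2 had one in some, and of 5 endothelial markers 3 and 2. Of the 17 markers of other cell types with a peak in any library, 14 had their highest raw value in a reactivated library (3 of 5 astrocyte, 2 of 3 microglial, 5 of 5 neuron, 2 of 2 oligodendrocyte and 2 of 2 endothelial markers), as had 4 of the 8 NSPC markers. The other 3, Slc1a3, Gfap and Cx3cr1, were highest in a quiescent library. Among the astrocyte markers, S100b had 6.90 and 5.39 in the quiescent, 2.52 in activated replicate 1 alone and 8.14 and 7.24 in the reactivated libraries, with H3K4me3 at 11.3 in quiescent and 2.87 in activated NSPCs. Slc1a3 had 3.80 and 4.32 in the quiescent, no peak in the activated and 3.24 and 3.74 in the reactivated libraries, and Aqp4 had no peak in the quiescent, no peak in the activated and 3.68 and 3.45 in the reactivated libraries. The endothelial Kdr had 2.60 in quiescent replicate 2 alone, 4.91 and 3.99 in the activated and 9.58 and 7.30 in the reactivated libraries. Of the 8 NSPC markers, 2 were called lower in reactivated than in activated NSPCs (25%, against 8.82% of all genes) and 4 lower than in quiescent NSPCs (50%, against 18.0%) with none higher, and their median differences were -0.40 and -0.46 (limma, after centring). The part of other cells in the results was not tested. With 2 libraries against 2, an exact two-sided permutation test cannot give a p below 1 in 3, so differences were tested with limma across all genes or sites, on log2 fold enrichment centred on the median of each library. The study's methods call the replicates biologically independent. Over all promoters, the median log2 fold enrichment was higher by 0.16 in activated than in quiescent NSPCs, by 0.50 in reactivated than in activated and by 0.66 in reactivated than in quiescent NSPCs, and differences at promoters are relative to these shifts. Over all sites tested (sites are defined further on) the same medians were higher by 0.22, 0.66 and 0.88, and differences at sites are relative to those. A value called lower in reactivated NSPCs is therefore lower after this shift, and can be higher as measured.

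The E-box that TFEB-family proteins read was searched in RefSeq promoter windows (GRCm38.p6, 250 bases before to 50 after each start), which were found for 49 of the 59 genes. No window was matched for Ctsh, Atp6v0a2, Npc1, Ctsb, Atp6v1b2, Asah1, Atp6v0d2, Atp6v1h, Atp6v1g1 and Atp6v1c1. CACGTG, its core, occurred in the windows of 16 of the 49 genes (32.7%), against 9.22% of 15687 protein-coding autosomal genes. Among genes with a promoter ATAC-seq peak in all 6 libraries, the shares were 14 of 39 lysosome genes (35.9%) and 11.8% of 8884 genes. The longer form TCACGTGA occurred in 7 of 49 (14.3%), against 1.41% of all genes. These were Ctsa, Ctsd, Mcoln1, Cln3, Atp6v0d1, Atp6v0e and Atp6v1a. The same word with a further G before and C after it was found in Cln3 alone of the 49, against 0.504% of all genes. CCAAT was found in 17 of 49 (34.7%) against 41.7%. GGGCGG, the GC box, was found in 34 of 49 (69.4%) against 51.7%, and among genes with a peak in all 6 libraries in 74.4% against 71.5%. All 5 words were matched exactly on both strands, and each longer E-box word contains the shorter ones.

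TCACGTGA lay under an ATAC-seq peak in 6 of the 7 genes, and the stretches are shown because they are the accessible copies of this element. They are written 5′ to 3′ on the strand of the gene (mm10), with the E-box in capitals, and are cut to 30 bases where the element lies in a transcribed leader:
Ctsa, chr2:164833757-164833786, plus strand: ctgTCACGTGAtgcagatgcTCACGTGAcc
Ctsd, chr7:142387908-142387937, minus strand: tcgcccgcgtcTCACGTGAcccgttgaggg
Mcoln1, chr8:3500462-3500491, plus strand: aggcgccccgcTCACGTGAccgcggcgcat
Atp6v0d1, chr8:105566048-105566128, minus strand: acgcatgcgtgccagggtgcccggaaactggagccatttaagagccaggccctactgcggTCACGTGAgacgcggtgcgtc
Atp6v0e, chr17:26676387-26676416, plus strand: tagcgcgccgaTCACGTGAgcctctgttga
Atp6v1a, chr16:44139324-44139451, minus strand: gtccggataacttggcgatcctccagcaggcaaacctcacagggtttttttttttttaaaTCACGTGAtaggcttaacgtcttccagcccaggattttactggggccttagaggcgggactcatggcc
In Atp6v0d1, Atp6v1a, Ctsd and Mcoln1 the peak over the element was called in all 6 libraries, in Atp6v0e in 5 and in Ctsa, which has 2 copies starting 17 bases apart, in 4. The distance from the element to the summit of that peak was 6 to 78 bp in Mcoln1, 50 to 94 bp in Atp6v0d1 and 52 to 99 bp in Ctsd. The promoter of Lamp1, which encodes an abundant glycoprotein of the lysosomal membrane, held the core word 4 times within 52 bases and no TCACGTGA. It is shown because of that cluster, was picked after its sequence was seen, and has the 4 cores in capitals:
Lamp1, chr8:13159075-13159160, plus strand: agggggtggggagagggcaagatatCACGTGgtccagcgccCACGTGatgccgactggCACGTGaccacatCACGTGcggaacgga
No ATAC-seq peak covered the 2 core words of Cln3, nor those of Ctsl and Lgmn, whose peaks lay elsewhere in the promoter. For the 14 genes with CACGTG and a peak in all 6 libraries, the activated minus quiescent difference of log2 fold enrichment ranged from -0.14 to 0.53 with a median of 0.10. For the 25 genes with a matched window and no CACGTG it ranged from -0.98 to 0.62 with a median of -0.14. These are descriptions of the sequence and no test was made of them.

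A promoter peak, counted as any peak within 1 kb of an annotated transcription start, was present in all 6 ATAC-seq libraries for 48 of the 59 genes (81.4%), against 54.4% of all genes. Complete sets were found for 9 of 11 proteases, 9 of 10 in the group of glycosidases and the sulfatase Sgsh, 7 of 7 lipid-degrading enzymes, activators and lipid transporters, 5 of 7 membrane and accessory proteins, Tfeb and 17 of 23 Atp6v genes. No promoter peak in any library was found for 7 genes (11.9%, against 30.0% of all genes).

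**Figure D1:**
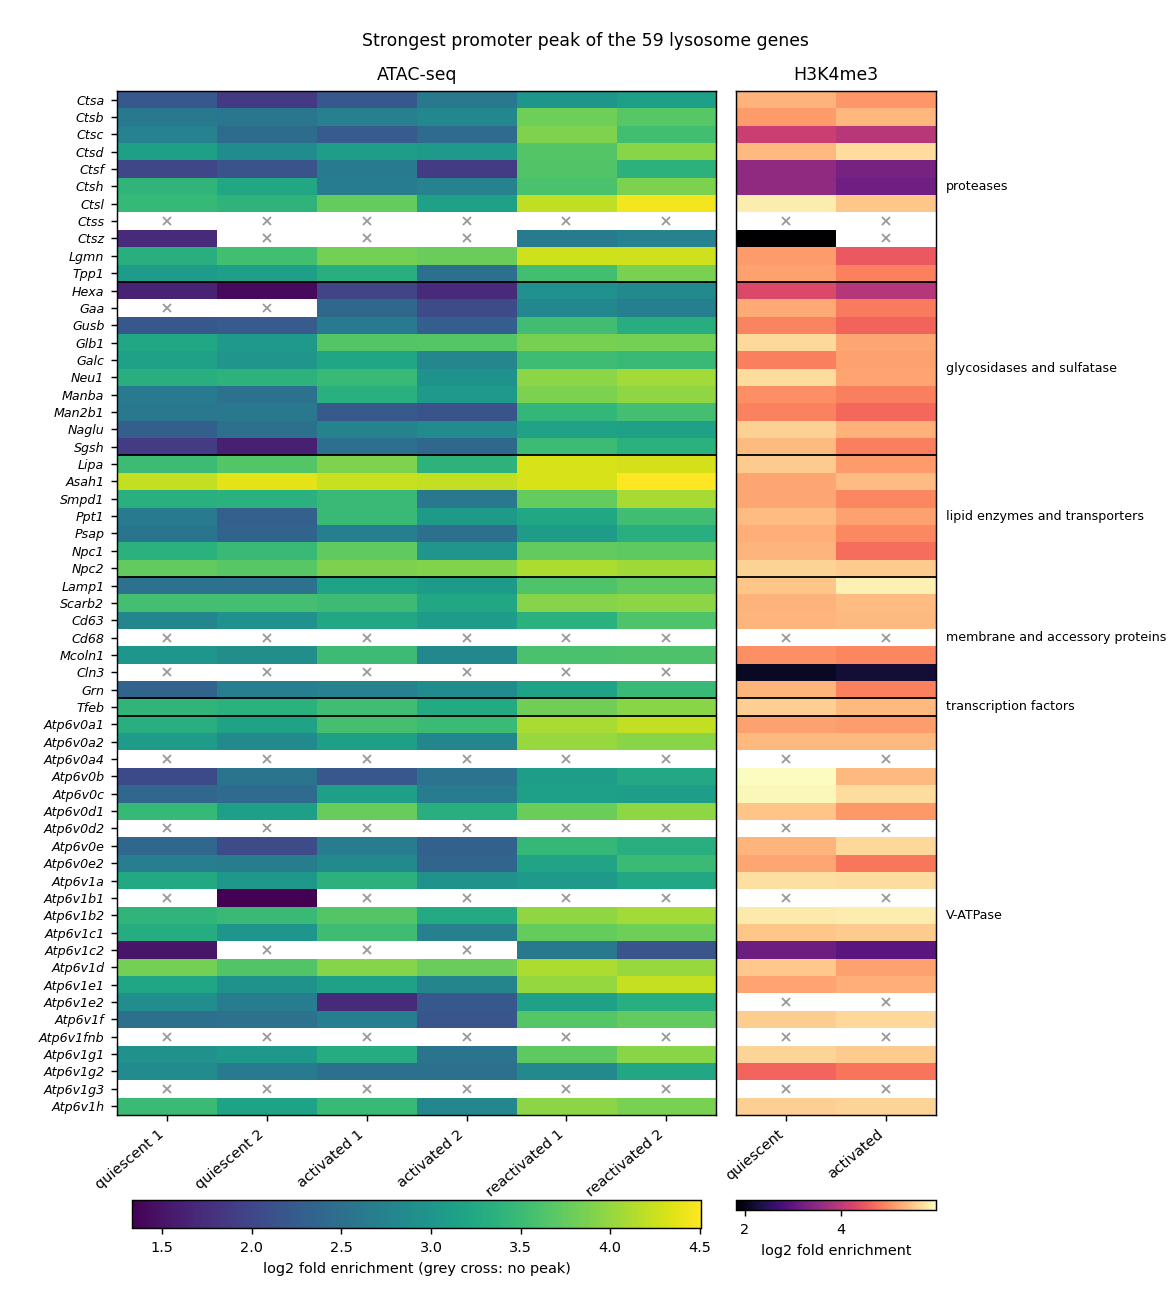
Log2 fold enrichment of the strongest promoter peak of each of the 59 genes, by library, for ATAC-seq (left) and H3K4me3 (right). Rows are genes in their groups and grey crosses mark promoters with no peak: 48 rows are filled in all 6 ATAC-seq columns, and 7 rows have none.

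The 7 genes without a promoter peak were Ctss (cathepsin S, a protease of antigen-presenting cells), Cd68 (a macrophage membrane glycoprotein), Cln3 (a lysosomal membrane protein mutated in juvenile Batten disease), and Atp6v0a4, Atp6v0d2, Atp6v1g3 and Atp6v1fnb. Atp6v0a4 and Atp6v1g3 encode V-ATPase subunits of kidney intercalated cells, and Atp6v0d2 one of osteoclasts. Of these 7 only Cln3 had H3K4me3 at its promoter, at a fold enrichment of 4.30 in quiescent and 4.72 in activated NSPCs. The nearest ATAC-seq site to Cln3, 2.18 kb upstream at a start of Apobr, had 3.82 and 3.22 in the quiescent, 4.42 in activated replicate 2 alone and 6.57 and 5.48 in the reactivated libraries. Near Ctss the sole site of any class was 9.10 kb upstream and had no peak in the quiescent, no peak in the activated and 5.07 and 3.99 in the reactivated libraries.

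In 4 other genes a promoter peak was found in some of the libraries. Gaa, the acid α-glucosidase that degrades glycogen, had no peak in the quiescent, 5.31 and 4.16 in the activated and 7.06 and 6.52 in the reactivated libraries. The site (chr11:119267822-119268085) covers the start of the gene. Its pileup was 39 and 31 reads in the activated libraries, where the lowest called pileup was 17 and 16. Peaks in both activated and neither quiescent library were found at 0.948% of all promoters, and the reverse, which no member showed, at 0.780%. H3K4me3 covered the Gaa promoter in both states, at 37.6 in quiescent and 28.4 in activated NSPCs. Ctsz (cathepsin Z, a carboxypeptidase) had 3.30 in quiescent replicate 1 alone, no peak in the activated and 6.28 and 6.68 in the reactivated libraries, with H3K4me3 called in quiescent NSPCs alone at 3.55, a pattern of 1.36% of all genes. Atp6v1c2, a tissue-restricted isoform of the C subunit, had 2.89 in quiescent replicate 1 alone, no peak in the activated and 6.14 and 4.52 in the reactivated libraries, with H3K4me3 at 8.95 and 7.91 in the quiescent and activated states. Atp6v1b1, the kidney isoform of the ATP-hydrolysing B subunit, had a single peak of 2.52 in quiescent replicate 2, the library with the highest background, and no H3K4me3.

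Within each sector, V-ATPase genes differed by isoform. Among the 9 V0 genes, Atp6v0a1, Atp6v0a2, Atp6v0b, Atp6v0c, Atp6v0d1, Atp6v0e and Atp6v0e2 had a peak in all 6 libraries and Atp6v0a4 and Atp6v0d2 in none. Among the 13 V1 genes, Atp6v1a, Atp6v1b2, Atp6v1c1, Atp6v1d, Atp6v1e1, Atp6v1e2, Atp6v1f, Atp6v1g1, Atp6v1g2 and Atp6v1h had a peak in all 6, Atp6v1b1 and Atp6v1c2 in some and Atp6v1g3 in none. Over the sets with peaks in all 6 libraries, the median fold enrichment ranged from 6.34 to 11.3 between libraries for V0 and from 6.70 to 14.3 for V1.

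H3K4me3 was present at the promoter in both states for 50 of the 59 genes (84.7%), against 61.0% of all genes, in 1 state for Ctsz and in neither for 8. The 8 were Ctss, Cd68, Atp6v0a4, Atp6v0d2, Atp6v1b1, Atp6v1fnb, Atp6v1g3 and Atp6v1e2. Of these only Atp6v1e2, an E-subunit isoform known from testis, had ATAC-seq peaks in all 6 libraries; a peak in all 6 without H3K4me3 in either state was found at 1.94% of the promoters with a peak in all 6. H3K4me3 in both states was found at 47 of the 48 promoters with an ATAC-seq peak in all 6 libraries, against 97.3% of all such genes. Over the 50 genes, the fold enrichment of H3K4me3 had a median of 39.98 in quiescent and 35.8 in activated NSPCs. After centring on all genes, none of the 50 differed by 1.5-fold or more between the states, where 1.75% of 12670 genes were past that fold on the activated side and 2.66% on the quiescent side. With 1 library per state this has no test. The gene furthest on the activated side was Lamp1, at 44.5 in quiescent and 58.2 in activated NSPCs, a centred ratio of 1.42. Lgmn (legumain, an asparaginyl protease), Npc1 (the cholesterol exporter) and Atp6v0b (a proteolipid of the V0 ring) lay furthest on the quiescent side, each with a centred quiescent-to-activated ratio of 1.40. For Npc1 the values were 40.01 and 26.4, and for Atp6v0b 62.4 and 41.2, in quiescent and activated NSPCs.

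The main comparison asked whether promoter accessibility of lysosome genes differed between quiescent and activated NSPCs. Of the 48 genes with a peak in all 6 libraries, none passed the test as higher in activated NSPCs and 2 passed as lower, Ctsh and Atp6v1e2 (4.17%), where 1.40% of 11314 genes were called higher and 1.34% lower. At an unadjusted p under 0.05, limma gave 5 higher (10.4%, against 8.44% of all genes) and 9 lower (18.8%, against 10%). The median difference over the 48 genes was -0.10, against -0.03 over all genes tested. After centring, both activated values lay above both quiescent values for 9 of the 48 genes (18.8%, against 20.4% of all genes), and below them for 16 (33.3%, against 25.6%). On the raw values the order of these counts turned, with 15 genes above (31.2%, against 35.5% of all genes) and 6 below (12.5%, against 7.43%). Without quiescent replicate 1 or without quiescent replicate 2 neither call was made, while the share of all genes called went from 2.74% to 0.751% and 1.02%. Without activated replicate 1 neither was made and Smpd1 was called in their place, at -0.78 (limma adjusted p = 0.028). Without centring neither was made, at -0.61 for Ctsh (limma adjusted p = 0.078) and -0.82 for Atp6v1e2 (limma adjusted p = 0.055). With missing peaks given the lowest fold enrichment, Atp6v1e2 was not called (limma adjusted p = 0.088), Ctsh was, and Gaa was called higher, so that the split was 1 and 1. Ctsh was not called with starts of protein-coding transcripts only (limma adjusted p = 0.294) or with the 5′ start only (limma adjusted p = 0.308), where Atp6v1h was called lower beside Atp6v1e2.

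Among the proteases, Ctsh (cathepsin H, an aminopeptidase) had promoter values of 10.7 and 9.32 in the quiescent, 6.37 and 6.70 in the activated and 12.1 and 14.7 in the reactivated libraries. Its activated values were the lowest pair, and the activated minus quiescent difference was -0.77 (SE 0.16, limma adjusted p = 0.014). Ctsh has annotated starts in 2 accessible sites, and this difference joins them, since the strongest peak lay at the internal start in all but activated replicate 2 of these 4 libraries. At the internal start, 6.54 kb into the gene (chr9:90060434-90060947), the values were 10.7 and 9.32 in the quiescent, 6.37 and 5.28 in the activated and 11.001 and 12.8 in the reactivated libraries and the difference in the test over all sites was -1.005 (SE 0.17, limma adjusted p = 3.1e-04). At the 5′ start they were 9.06 and 5.96 in the quiescent, 5.70 and 6.70 in the activated and 12.1 and 14.7 in the reactivated libraries, with a difference of -0.47 (SE 0.21, limma adjusted p = 0.138), and this start was not called. Ctsc (cathepsin C, which activates granule proteases) had 6.70 and 5.50 in the quiescent, 4.77 and 5.42 in the activated and 14.9 and 11.7 in the reactivated libraries, and its quiescent and activated values did not overlap after centring, with a difference of -0.41 (SE 0.20, limma adjusted p = 0.282). Ctsb and Ctsd, the abundant cysteine and aspartic proteases, showed no such separation. Ctsb had 6.12 and 5.96 in the quiescent, 6.54 and 7.07 in the activated and 14.004 and 12.8 in the reactivated libraries, with an activated minus quiescent difference of 0.01 (SE 0.18, limma adjusted p = 0.982). Ctsd had 8.82 and 7.32 in the quiescent, 8.66 and 8.26 in the activated and 12.6 and 15.4 in the reactivated libraries, with a difference of -0.09 (SE 0.15, limma adjusted p = 0.801). The other proteases with complete sets (Ctsa, Ctsf, Ctsl, Lgmn and Tpp1) lay between -0.34 (Tpp1) and 0.22 (Lgmn).

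Glycosidases and the sulfatase pointed both ways. Man2b1, the lysosomal α-mannosidase (chr8:85083123-85083368), had 6.09 and 6.10 in the quiescent, 4.64 and 4.42 in the activated and 10.8 and 11.8 in the reactivated libraries. Its activated values were below its quiescent ones, with a difference of -0.59 (SE 0.19, limma adjusted p = 0.095); for the site alone, over all sites tested, the difference was -0.65 (SE 0.20, limma adjusted p = 0.036). Sgsh, the heparan sulfate sulfatase, had 3.74 and 3.05 in the quiescent, 5.62 and 5.29 in the activated and 11.4 and 10.3 in the reactivated libraries. Its activated values were above its quiescent ones, and the difference of 0.53 (SE 0.21, limma adjusted p = 0.166) did not pass the test. The Sgsh start is shared with Slc26a11. Manba, the β-mannosidase, had 6.18 and 5.73 in the quiescent, 10.2 and 8.27 in the activated and 14.8 and 15.8 in the reactivated libraries by its strongest peak, with a difference of 0.47 (SE 0.15, limma adjusted p = 0.096). That difference joins 2 starts, since at the 5′ start alone the values were 6.18 and 5.73 in the quiescent, 7.83 and 6.85 in the activated and 14.8 and 15.8 in the reactivated libraries, with a difference of 0.08 (SE 0.17, limma adjusted p = 0.814). Hexa, Gusb, Glb1, Galc, Neu1 and Naglu ranged from -0.30 (Neu1) to 0.37 (Glb1), and none was called.

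In the lipid group, Ppt1 (palmitoyl-protein thioesterase, promoter peak at chr4:122835795-122836499) had 6.31 and 4.97 in the quiescent, 11.2 and 8.32 in the activated and 9.40 and 11.6 in the reactivated libraries, with the quiescent pair lowest and a difference of 0.62 (SE 0.18, limma adjusted p = 0.064) over promoters. Taken as a site among all sites, the same peak gave 0.56 (SE 0.18, limma adjusted p = 0.045), just past the threshold, so the call depends on the table it is tested in. Smpd1, the acid sphingomyelinase, had 10.2 and 10.3 in the quiescent, 11.1 and 6.11 in the activated and 13.5 and 17.1 in the reactivated libraries and a difference of -0.47 (SE 0.17, limma adjusted p = 0.147). Its raw values overlapped between these states. Asah1, the acid ceramidase, had the highest values of all members in quiescent NSPCs, with 18.7 and 20.8 in the quiescent, 18.9 and 18.6 in the activated and 19.8 and 22.7 in the reactivated libraries. Psap, the precursor of the saposins, had 5.92 and 5.12 in the quiescent, 6.50 and 5.68 in the activated and 8.42 and 10.04 in the reactivated libraries, and its difference was -0.02 (SE 0.19, limma adjusted p = 0.976). Lipa, Npc1 and Npc2 ranged from -0.22 to 0.02.

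Of the membrane and accessory proteins, Lamp1 had 5.78 and 5.73 in the quiescent, 9.05 and 8.35 in the activated and 12.4 and 13.1 in the reactivated libraries. Its quiescent values were the lowest pair, and the difference of 0.44 (SE 0.16, limma adjusted p = 0.142) did not pass the test. Mcoln1, the lysosomal calcium channel, had 8.01 and 7.46 in the quiescent, 11.3 and 7.02 in the activated and 12.1 and 12.3 in the reactivated libraries, with a difference of 0.05 (SE 0.17, limma adjusted p = 0.904). Grn, which encodes progranulin, had 5.08 and 6.48 in the quiescent, 6.66 and 7.36 in the activated and 9.01 and 11.1 in the reactivated libraries, with a difference of 0.13 (SE 0.20, limma adjusted p = 0.770). Both lay close to 0 within their errors. Tfeb, the transcription factor of the CLEAR element, had 10.6 and 10.3 in the quiescent, 11.5 and 9.66 in the activated and 14.1 and 15.4 in the reactivated libraries, and its difference was -0.14 (SE 0.13, limma adjusted p = 0.580). The strongest Tfeb peak lay at an internal start 25.9 kb from the 5′ end of the gene. H3K4me3 at Tfeb was 46.8 and 40.9 in quiescent and activated NSPCs.

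In the V-ATPase, Atp6v1e2 (chr17:86947765-86948396) had 7.43 and 6.42 in the quiescent, 3.32 and 4.63 in the activated and 8.85 and 10.04 in the reactivated libraries. The activated libraries were the lowest pair and did not overlap either other state, with an activated minus quiescent difference of -0.98 (SE 0.22, limma adjusted p = 0.027). Without activated replicate 1 this difference was -0.62. Atp6v1e2 was not fitted with peaks of −log10 q of 10 or more, nor with lists limited to the shortest. Its close relative Atp6v1e1, the ubiquitous E subunit, had 9.15 and 7.78 in the quiescent, 8.85 and 6.85 in the activated and 16.02 and 18.7 in the reactivated libraries and a difference of -0.28 (SE 0.14, limma adjusted p = 0.317). Atp6v1g2, the neuronal G subunit, had 7.31 and 6.25 in the quiescent, 5.66 and 5.67 in the activated and 7.19 and 9.43 in the reactivated libraries, with activated below quiescent values after centring and a difference of -0.41 (SE 0.20, limma adjusted p = 0.266); it shares a start with Nfkbil1. Over the 10 V1 genes tested the median difference was -0.23. After centring, both activated values were below both quiescent ones for 5 of them (50%, against 25.6% of all genes) and above them for none (against 20.4%). On the raw values this held for 2 (against 7.43% of all genes below) and none (against 35.5% above). Over the 7 V0 genes the median was 0.10, with 1 gene of each kind after centring, and none below and 2 above (28.6%, against the same shares) on the raw values.

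**Figure D2:**
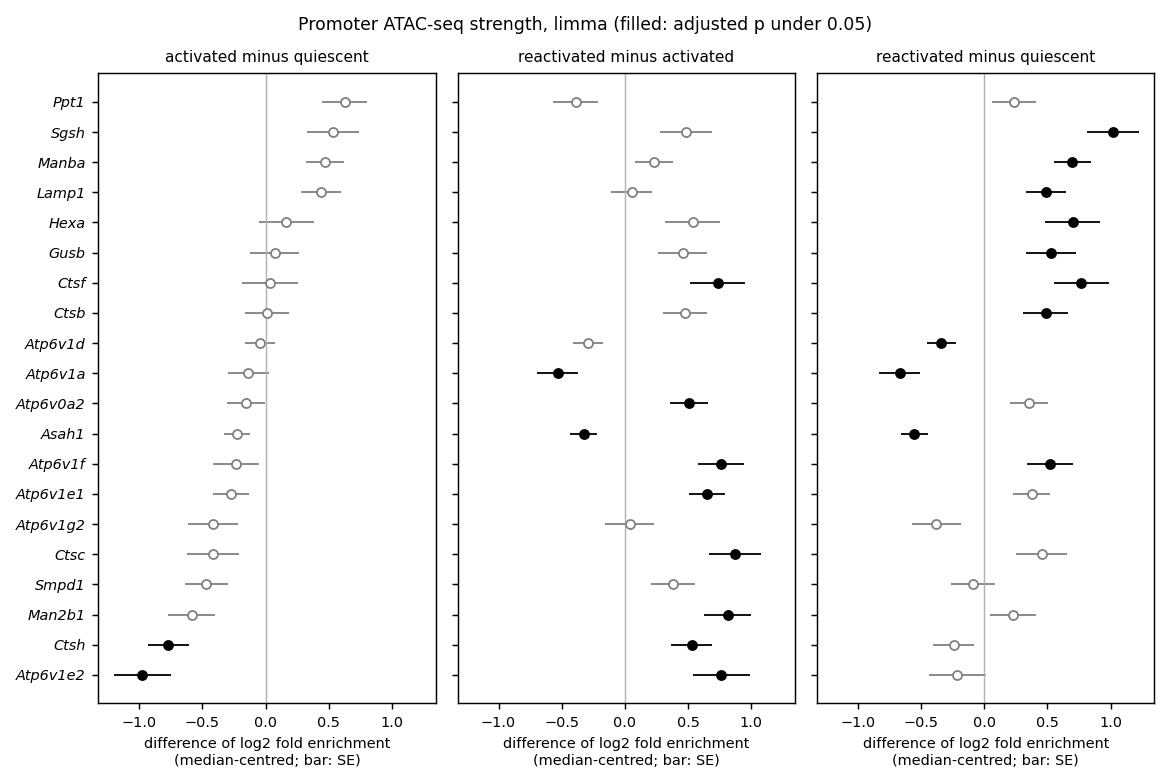
Differences of median-centred log2 fold enrichment at promoters, with standard errors, for the 20 members that passed the test in a comparison or had the largest separated difference between quiescent and activated NSPCs. Filled points have an adjusted p under 0.05: 2 in the left panel, 10 in the middle and 11 on the right.

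Reactivated NSPCs were compared with activated NSPCs, which they resemble in medium, and with quiescent NSPCs. The 2 comparisons share the reactivated libraries, and their values are given side by side. Against activated NSPCs, 8 of the 48 promoters were called higher (16.7%, against 8.22% of all genes) and 2 lower (4.17%, against 8.82%). Against quiescent NSPCs, 8 were called higher (16.7%, against 13.3%) and 3 lower (6.25%, against 18.0%). The median differences over the 48 genes were 0.17 and 0.07, against -0.03 and -0.04 over all genes tested. Without centring the split became 36 higher (75%, against 53.5% of all genes) and none lower, and 41 higher (85.4%, against 69.4%) and none lower. With missing peaks given the lowest fold enrichment it became 5 higher and 1 lower of 52 genes against activated NSPCs (9.62% and 1.92%, against 7.39% and 6.52% of all genes), and 4 higher and 5 lower against quiescent NSPCs (7.69% and 9.62%, against 11.4% and 16.5%), with 5 of the 10 and 6 of the 11 calls kept. With quantile normalization it became 9 higher and 1 lower in both comparisons (18.8% and 2.08%, where 10.4% and 10.5% of all genes were called against activated and 12.2% and 13.03% against quiescent NSPCs), with 9 of the 10 and 5 of the 11 kept. The calls also rested on each library, and so did those over all genes: without reactivated replicate 1 none of the 10 calls against activated NSPCs was made, without reactivated replicate 2 only 1, without activated replicate 2 only 5 and without activated replicate 1 only 6 (Ctsc, Ctsh, Atp6v1e2 and Atp6v1a were lost). Over all genes, 17.04% were called against activated NSPCs, and in the same order of libraries left out 1.55%, 2.95%, 7.75% and 14.3%. With activated replicate 1 left out, 11 of the 48 promoters were called in total (9 higher and 2 lower, 22.9%), of which 6 were among the 10. Of the 11 calls against quiescent NSPCs, 5 were made without quiescent replicate 1, 6 without quiescent replicate 2, 3 without reactivated replicate 1 and 5 without reactivated replicate 2, where the share of all genes called went from 31.3% to 24.95%, 18.4%, 10.9% and 12.8%.

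Proteases gave 3 of the higher calls against activated NSPCs, Ctsc, Ctsf and Ctsh, and 2 against quiescent NSPCs, Ctsb and Ctsf. For Ctsc, reactivated minus activated was 0.87 (SE 0.20, limma adjusted p = 0.010) and reactivated minus quiescent 0.45 (SE 0.20, limma adjusted p = 0.095). Ctsf (cathepsin F) had 4.04 and 4.43 in the quiescent, 6.32 and 3.71 in the activated and 12.5 and 10.4 in the reactivated libraries. It passed in both comparisons, at 0.73 (SE 0.22, limma adjusted p = 0.030) and 0.77 (SE 0.22, limma adjusted p = 0.014). Without activated replicate 2 the reactivated minus activated difference of Ctsf was 0.46 and was not called. Ctsh was at 0.53 (SE 0.16, limma adjusted p = 0.031) and -0.24 (SE 0.16, limma adjusted p = 0.255), and without centring the latter turned to 0.42 (limma adjusted p = 0.049). Both values join 2 starts: the strongest peak lay at the internal start in both quiescent libraries and in activated replicate 1, and at the 5′ start in both reactivated ones and in activated replicate 2. With the 5′ start alone tested over promoters, reactivated minus quiescent was 0.21 (SE 0.20, limma adjusted p = 0.458) and reactivated minus activated 0.61 (SE 0.20, limma adjusted p = 0.048). At the internal start, as a site, reactivated minus quiescent was -0.63 (SE 0.17, limma adjusted p = 0.006), a direction that turned to 0.25 without centring. Ctsb, whose values are given above, was at 0.47 (SE 0.18, limma adjusted p = 0.069) and 0.49 (SE 0.18, limma adjusted p = 0.043).

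Among the glycosidases and the sulfatase, Man2b1 was higher than in activated NSPCs at 0.81 (SE 0.19, limma adjusted p = 0.008) and stood at 0.23 (SE 0.19, limma adjusted p = 0.360) against quiescent NSPCs. Sgsh, Manba, Hexa and Gusb were higher than in quiescent NSPCs. Sgsh had the largest such difference of the 48 genes, 1.02 (SE 0.21, limma adjusted p = 0.002), with 0.49 (SE 0.21, limma adjusted p = 0.105) against activated NSPCs. Manba was at 0.70 (SE 0.15, limma adjusted p = 0.003) and Hexa, the α subunit of β-hexosaminidase, at 0.70 (SE 0.22, limma adjusted p = 0.021). Hexa had the lowest quiescent values of the 48 genes, with 3.12 and 2.67 in the quiescent, 3.98 and 3.28 in the activated and 7.69 and 7.18 in the reactivated libraries, and shares its start with Tmem202. Gusb, the β-glucuronidase, had 4.64 and 4.74 in the quiescent, 6.23 and 4.85 in the activated and 11.6 and 9.89 in the reactivated libraries and was at 0.53 (SE 0.20, limma adjusted p = 0.046). Lamp1 was higher than in quiescent NSPCs as well, at 0.49 (SE 0.16, limma adjusted p = 0.026), and stood at 0.05 (SE 0.16, limma adjusted p = 0.845) against activated NSPCs.

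Asah1 was the gene of the lipid group that was called, and it was lower in reactivated NSPCs, at -0.33 (SE 0.11, limma adjusted p = 0.041) and -0.55 (SE 0.11, limma adjusted p = 0.001). This direction depends on centring, since without it the differences were 0.18 and 0.11. In the V-ATPase, 4 genes were higher than in activated NSPCs. Atp6v1e1 was at 0.65 (SE 0.14, limma adjusted p = 0.007) and Atp6v1e2 at 0.76 (SE 0.22, limma adjusted p = 0.028). Without activated replicate 1 the Atp6v1e2 difference was 0.40. Atp6v0a2, an a subunit of Golgi and endosomes, had 8.46 and 7.18 in the quiescent, 8.80 and 6.94 in the activated and 16.2 and 15.3 in the reactivated libraries and was at 0.51 (SE 0.15, limma adjusted p = 0.028). Atp6v1f (the F subunit of the central stalk) had 5.70 and 5.78 in the quiescent, 6.50 and 4.55 in the activated and 12.7 and 13.4 in the reactivated libraries. It passed in both comparisons, at 0.76 (SE 0.18, limma adjusted p = 0.010) and 0.52 (SE 0.18, limma adjusted p = 0.035). Atp6v1a, the catalytic A subunit, was called lower after centring, with 9.57 and 8.18 in the quiescent, 10.4 and 7.76 in the activated and 8.26 and 9.38 in the reactivated libraries and differences of -0.53 (SE 0.16, limma adjusted p = 0.031) and -0.67 (SE 0.16, limma adjusted p = 0.005). Its raw values in reactivated NSPCs overlapped those of the other states, and without centring the differences were -0.03 (limma adjusted p = 0.909) and -0.0071 (limma adjusted p = 0.98). The Atp6v1a values join 2 sites, since the strongest peak in reactivated replicate 2 was the one over the E-box. That E-box peak had 5.69 and 4.96 in the quiescent, 7.52 and 6.75 in the activated and 8.08 and 9.38 in the reactivated libraries. With a single common site per promoter, the reactivated minus activated difference was -0.60 (limma adjusted p = 0.022). The start of Atp6v1a is shared with Naa50. Atp6v1d, of the central stalk, had 14.3 and 12.5 in the quiescent, 15.3 and 13.7 in the activated and 17.3 and 16.2 in the reactivated libraries and was lower than in quiescent NSPCs at -0.34 (SE 0.12, limma adjusted p = 0.035), a direction that turned to 0.32 without centring. It shares its start with Eif2s1.

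A list of 60 lysosome genes that are not among the 59, such as Arsa and the lysosomal transporter Slc38a9, were examined in the same way. A promoter peak in all 6 libraries was present for 48 of them (80%), and for these the median activated minus quiescent difference was -0.11. No promoter of them was called between quiescent and activated NSPCs by limma, with 3 higher (6.25%, against 8.44% of all genes) and 10 lower (20.8%, against 10%) at an unadjusted p under 0.05. In reactivated NSPCs 7 were higher than in activated (14.6%, against 8.22% of all genes) and none lower (against 8.82%), with 10 (20.8%, against 15.3%) and 5 (10.4%, against 18.0%) at an unadjusted p under 0.05. Against quiescent NSPCs 7 were higher and 7 lower (14.6% each, against 13.3% and 18.0%).

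Sites were then taken over the gene body and 20 kb on each side. A site was the merged interval of peaks of the quiescent and activated libraries, and it was termed shared where each of the 2 states had a peak in 1 or both libraries. Sites found in both libraries of one state, with no peak in the other state, were termed specific to it. Around the 59 genes lay 186 such sites, of which 164 were shared, 13 quiescent-specific (6.99%, against 14.8% of the same kinds of sites genome-wide) and 9 activated-specific (4.84%, against 10.1%). Of the 164 shared sites near members, 51 lay away from any promoter. The genome-wide shares are over promoter and distal sites together and were not matched for place. The lower shares are therefore not read as particular to the members. A quiescent-specific site was near 12 genes (20.3%, against 21.4% of all genes) and an activated-specific site near 8 (13.6%, against 16.6%). All 9 activated-specific sites had a peak in both reactivated libraries (genome-wide 92.0%), as did 8 of the 13 quiescent-specific ones (genome-wide 55.0%). Of the 164 shared sites, 158 had a peak in both reactivated libraries (genome-wide 95.6%). A specific site is one with no called peak in the other state, which is not an absence of accessibility.

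**Figure D3:**
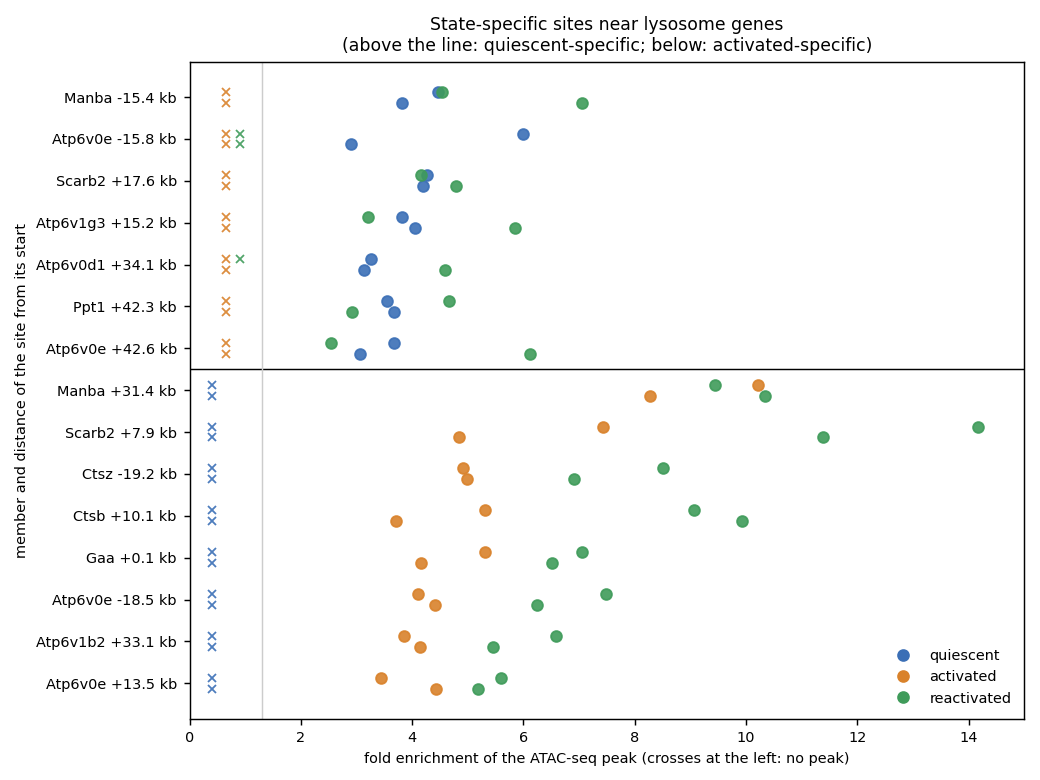
Fold enrichment in each of the 6 ATAC-seq libraries at the 15 state-specific sites with the highest mean percentile; rows are sites, named by the member and the distance from its 5′ start, and crosses mark libraries with no peak. All 8 activated-specific sites shown have peaks in both reactivated libraries, at 5.19 to 14.2.

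The strongest activated-specific site was the internal start of Manba, 31.4 kb into the gene (chr3:135516832-135517288), with no peak in the quiescent, 10.2 and 8.27 in the activated and 9.44 and 10.3 in the reactivated libraries. It carried no H3K4me3 in either state. An intronic site of Scarb2, the receptor that carries glucocerebrosidase to lysosomes, lay 7.93 kb into the gene (chr5:92498688-92499118) and had no peak in the quiescent, 7.43 and 4.85 in the activated and 14.2 and 11.4 in the reactivated libraries. Another intronic site of Scarb2 was quiescent-specific, 17.6 kb into the gene (chr5:92489009-92489387), with 4.27 and 4.20 in the quiescent, no peak in the activated and 4.16 and 4.80 in the reactivated libraries. Manba likewise had a quiescent-specific site, intergenic and 15.4 kb upstream (chr3:135470068-135470313), with 4.47 and 3.82 in the quiescent, no peak in the activated and 4.54 and 7.05 in the reactivated libraries. These 2 genes thus held specific sites of both kinds, as did Atp6v0e and Cd63. For 3 of these sites, 150 bases around the summits are shown because they carry the state difference, 5′ to 3′ on the strand of the gene (mm10), with the span of the peak summits of the libraries in capitals:
Manba activated-specific, chr3:135516928-135517077, plus strand: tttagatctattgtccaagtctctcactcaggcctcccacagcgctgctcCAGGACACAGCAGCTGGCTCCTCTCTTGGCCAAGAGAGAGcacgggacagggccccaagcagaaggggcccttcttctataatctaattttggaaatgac
Scarb2 activated-specific, chr5:92498769-92498918, minus strand: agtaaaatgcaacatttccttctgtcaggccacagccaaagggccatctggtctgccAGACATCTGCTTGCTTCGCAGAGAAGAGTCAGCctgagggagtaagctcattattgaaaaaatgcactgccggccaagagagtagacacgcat
Manba quiescent-specific, chr3:135470108-135470257, plus strand: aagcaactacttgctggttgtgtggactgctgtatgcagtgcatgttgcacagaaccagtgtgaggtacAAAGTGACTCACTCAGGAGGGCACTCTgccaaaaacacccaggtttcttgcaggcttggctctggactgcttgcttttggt
None of the 3 held CACGTG or the words CCAAT or GGGCGG in the 300 bases around the summits. After the sequences were seen, CAGCTG, an E-box read by proneural factors, and TGACTCA, the AP-1 word, were searched on both strands. CAGCTG lay within the capitals of the Manba activated-specific site, and genome-wide such a window held it in 38.4% of the 4597 activated-specific sites and in 11.9% of the 6714 quiescent-specific ones. TGACTCA lay within the capitals of the Manba quiescent-specific site, and genome-wide the shares were 3.62% for the quiescent-specific and 8.42% for the activated-specific class. The Scarb2 activated-specific stretch held neither word.

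Ctsb had an activated-specific site in an intron 10.1 kb into the gene (chr14:63132324-63132784), with no peak in the quiescent, 5.31 and 3.71 in the activated and 9.07 and 9.92 in the reactivated libraries. Ctsz had one 19.2 kb upstream (chr2:174458074-174458497), with no peak in the quiescent, 4.91 and 4.99 in the activated and 8.51 and 6.90 in the reactivated libraries. The Gaa promoter, described above, was of the same class. At Atp6v0e, which encodes the e subunit of V0, one lay at an internal start 13.5 kb into the gene, with no peak in the quiescent, 3.45 and 4.42 in the activated and 5.60 and 5.19 in the reactivated libraries. Another lay 18.5 kb upstream within Ergic1, with no peak in the quiescent, 4.11 and 4.42 in the activated and 7.48 and 6.25 in the reactivated libraries. Atp6v1b2, the brain isoform of the B subunit, had one 33.1 kb from its start and past its end, with no peak in the quiescent, 3.85 and 4.14 in the activated and 6.58 and 5.45 in the reactivated libraries. In all of these the reactivated values lay above the activated ones before centring.

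Among the quiescent-specific sites, near Atp6v0e, one 15.8 kb upstream within Ergic1 had 5.99 and 2.90 in the quiescent, no peak in the activated and no peak in the reactivated libraries, and one 42.6 kb from the start had 3.68 and 3.06 in the quiescent, no peak in the activated and 2.53 and 6.12 in the reactivated libraries. Atp6v1g3, a gene with no promoter peak, had one in an exon 15.2 kb from its start with 3.81 and 4.05 in the quiescent, no peak in the activated and 3.20 and 5.85 in the reactivated libraries. An intron of Atp6v0d1, the d subunit of V0, held one 34.1 kb into the gene with 3.25 and 3.13 in the quiescent, no peak in the activated and 4.59 in reactivated replicate 2 alone. The site near Ppt1, 42.3 kb from its start within Cap1, had 3.55 and 3.67 in the quiescent, no peak in the activated and 4.67 and 2.93 in the reactivated libraries. The remaining 7 state-specific sites had a lower mean percentile, lay near Atp6v0d1, Atp6v1f, Cd63, Ctsd, Ctsl and Mcoln1, and had values up to 5.87 in any library.

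Shared sites could be compared in strength where all 6 libraries had a peak, which held for 125 sites near members, 24 of them away from any promoter. Between quiescent and activated NSPCs, 1 was called higher (genome-wide 6.36% of 22698 sites) and 5 lower (genome-wide 6.89%). The higher one was the Ppt1 promoter, and the lower ones were the internal start of Ctsh and the promoters of Atp6v1e2, Man2b1, Scarb2 and Atp6v1h. Genome-wide, 10328 of the 22698 sites lay away from any promoter, so the shares over all sites are not like for like. The same limit holds for the 125 sites in the reactivated comparisons below. None of the 24 sites away from promoters was called by limma, where 10.8% of the 10328 such sites genome-wide were called higher and 9.87% lower. At an unadjusted p under 0.05 none of the 24 was higher (genome-wide 17.2%) and 3 were lower (12.5%, genome-wide 18.5%). Atp6v1h, the regulatory H subunit, is annotated with starts at 2 accessible sites. At the 5′ one (chr1:5070265-5070703), shared with Rgs20, the values were 11.3 and 9.02 in the quiescent, 7.16 and 4.71 in the activated and 9.61 and 13.2 in the reactivated libraries. The activated minus quiescent difference there was -1.02 (SE 0.19, limma adjusted p = 7.6e-04) and the reactivated minus quiescent one -0.72 (SE 0.19, limma adjusted p = 0.005), the latter turning to 0.16 without centring. At the other, 13.2 kb further in, they were 9.47 and 8.48 in the quiescent, 11.1 and 6.99 in the activated and 15.5 and 14.6 in the reactivated libraries, with a difference of -0.24 (SE 0.16, limma adjusted p = 0.352). At the Scarb2 promoter the values were 11.8 and 11.8 in the quiescent, 11.4 and 9.33 in the activated and 15.2 and 15.5 in the reactivated libraries, and the difference was -0.42 (SE 0.14, limma adjusted p = 0.048).

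Against activated NSPCs, reactivated NSPCs had 5 of the 125 sites higher (genome-wide 7.44%) and 21 lower (genome-wide 14.8%). Against quiescent NSPCs 4 were higher (genome-wide 11.4%) and 29 lower (genome-wide 26.0%). Most of the lower calls depend on centring: without it, 10 of the 21 differences and 23 of the 29 were above 0, and at 6 and 17 of these sites both raw reactivated values lay above both values of the compared state. With no centring in the test, 63 sites were called higher (50.4%, genome-wide 52.9%) and 1 lower against activated NSPCs, and 85 higher (68%, genome-wide 68.5%) and none lower against quiescent NSPCs. With quantile normalization the splits were 8 higher (6.40%, genome-wide 9.21%) and 13 lower (10.4%, genome-wide 8.77%), and 7 higher (5.60%, genome-wide 13.6%) and 14 lower (11.2%, genome-wide 14.05%). Without reactivated replicate 1 the 26 and 33 calls became 1 call (0.80%, genome-wide 4.09%) and 13 calls (10.4%, genome-wide 19.6%), and without reactivated replicate 2 the first became 10 (8.0%, genome-wide 7.51%). Without activated replicate 2 it became 14 (10.6%, genome-wide 11.3%), and without quiescent replicate 2 the other became 20 (15.9%, genome-wide 23.7%). The 6 calls between quiescent and activated NSPCs became 2 without quiescent replicate 1 (1.504%, genome-wide 8.60%) and 3 without quiescent replicate 2 (2.38%, genome-wide 7.59%) or either reactivated replicate (2.40%, genome-wide 10.5% and 10.4%). Of the 45 sites called in any comparison, 22 were promoters of a member, 16 promoters of another gene and 7 lay elsewhere. Of those 7, the largest rise was at a site 6.30 kb downstream of the Atp6v1f start (chr6:29473888-29474155), which lies within Kcp and 2.59 kb from the start of Atp6v1fnb and had 3.29 and 4.59 in the quiescent, 3.67 and 3.80 in the activated and 12.4 and 11.8 in the reactivated libraries. Both reactivated values were far above all others, with differences of 1.03 (SE 0.24, limma adjusted p = 0.006) against activated and 0.76 (SE 0.24, limma adjusted p = 0.017) against quiescent NSPCs. It was the only one of the 7 to be called higher. In Scarb2, an intronic site 13.2 kb into the gene had 6.97 and 7.95 in the quiescent, 10.9 and 10.98 in the activated and 12.02 and 11.1 in the reactivated libraries and a reactivated minus activated difference of -0.59 (SE 0.17, limma adjusted p = 0.018), although its raw reactivated values were both above the activated ones.

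The other 5 sites away from promoters were called lower in reactivated NSPCs after centring. A site 7.79 kb upstream of Psap had 2.37 and 2.75 in the quiescent, 3.18 and 3.14 in the activated and 2.67 and 3.19 in the reactivated libraries, with differences of -0.77 (SE 0.21, limma adjusted p = 0.014) and -0.69 (SE 0.21, limma adjusted p = 0.015) against activated and quiescent NSPCs. Upstream of Cd63, the tetraspanin of late endosomes, a site at 5.34 kb had 3.58 and 3.36 in the quiescent, 4.55 and 2.67 in the activated and 3.32 and 3.25 in the reactivated libraries, with differences of -0.75 (SE 0.23, limma adjusted p = 0.025) and -0.96 (SE 0.23, limma adjusted p = 0.003). Before centring, the reactivated values overlapped the activated ones at both sites. Near Tpp1 (tripeptidyl peptidase), a site 25.7 kb from the start had 7.89 and 6.65 in the quiescent, 6.50 and 5.13 in the activated and 6.91 and 5.62 in the reactivated libraries, and its reactivated minus quiescent difference was -1.10 (SE 0.21, limma adjusted p = 5.6e-04). Near Atp6v1e2, sites 10.2 and 23.1 kb from the start had 10.6 and 6.67 in the quiescent, 12.5 and 11.1 in the activated and 11.5 and 11.7 in the reactivated libraries, and 12.8 and 11.5 in the quiescent, 13.2 and 9.08 in the activated and 13.4 and 14.99 in the reactivated libraries. The first was lower against activated NSPCs at -0.69 (SE 0.17, limma adjusted p = 0.009) and the other against quiescent NSPCs at -0.66 (SE 0.14, limma adjusted p = 0.001). At the latter, both raw reactivated values were above both quiescent ones, and the difference without centring was 0.22. Without centring the Psap difference against quiescent NSPCs was also above 0, at 0.19, and the others stayed below 0.

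Besides Ppt1, the members' peaks that were called as sites and not as promoters were the upstream Atp6v1a and Npc1 peaks and the promoters of Npc1, Npc2, Glb1, Galc, Tfeb, Scarb2, Atp6v1g2 and Atp6v1h. Glb1, the β-galactosidase read in senescence assays, had 9.41 and 8.25 in the quiescent, 12.7 and 12.7 in the activated and 14.5 and 14.3 in the reactivated libraries, with a reactivated minus activated difference of -0.48 (SE 0.15, limma adjusted p = 0.026). At the Npc2 promoter the values were 13.4 and 12.9 in the quiescent, 14.7 and 15.002 in the activated and 17.4 and 16.7 in the reactivated libraries, with -0.46 (SE 0.13, limma adjusted p = 0.019) and -0.50 (SE 0.13, limma adjusted p = 0.006) against activated and quiescent NSPCs. Against quiescent NSPCs, the Tfeb promoter was at -0.38 (SE 0.14, limma adjusted p = 0.037), the Galc promoter at -0.45 (SE 0.17, limma adjusted p = 0.037) and the Npc1 promoter at -0.57 (SE 0.16, limma adjusted p = 0.010). Galc, the galactosylceramidase, had 8.89 and 7.96 in the quiescent, 9.18 and 6.97 in the activated and 11.5 and 11.2 in the reactivated libraries. The main Npc1 peak had 10.3 and 11.2 in the quiescent, 13.3 and 7.92 in the activated and 13.5 and 13.2 in the reactivated libraries. The smaller upstream peak of Npc1 had 4.77 and 4.14 in the quiescent, 5.29 and 4.63 in the activated and 4.49 and 5.64 in the reactivated libraries and a difference of -0.70 (SE 0.23, limma adjusted p = 0.021). The upstream peak of Atp6v1a had 4.93 and 4.33 in the quiescent, 4.84 and 4.95 in the activated and 4.07 and 4.41 in the reactivated libraries, with -0.87 (SE 0.23, limma adjusted p = 0.012) and -1.004 (SE 0.23, limma adjusted p = 0.002). At Atp6v1g2 the promoter was at -0.60 (SE 0.21, limma adjusted p = 0.030) against quiescent NSPCs. All of these were called lower after centring. Without centring the differences against quiescent NSPCs were 0.50 at Tfeb, 0.43 at Galc, 0.38 at Npc2 and Scarb2, 0.31 and 0.18 at the main and upstream Npc1 peaks and 0.28 at Atp6v1g2, and those against activated NSPCs were 0.18 at Glb1 and 0.20 at Npc2. Both raw reactivated values lay above both values of the compared state at Glb1, Npc2, Galc, Tfeb, Scarb2 and the main Npc1 peak. The upstream Atp6v1a peak stayed below 0, at -0.21 and -0.12. Conversely, Ctsb, Ctsf, Hexa, Gusb, Lamp1 and Atp6v0a2 were called as promoters and had no called site.

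The 16 called sites at promoters of other genes lay near members by position alone. All but 1 were called lower in reactivated NSPCs than in one or both other states after centring, 10 against activated and 12 against quiescent NSPCs. Without centring, 4 of those 10 and 10 of those 12 differences were above 0. Near Tpp1, the start of Ilk and Rrp8 had 11.4 and 13.3 in the quiescent, 13.2 and 10.2 in the activated and 10.7 and 11.8 in the reactivated libraries. Near Cd68, the start of Mpdu1 had 9.20 and 8.48 in the quiescent, 10.4 and 9.27 in the activated and 10.1 and 11.5 in the reactivated libraries. The start of Eif4a1 had 9.003 and 11.1 in the quiescent, 11.4 and 11.2 in the activated and 10.8 and 13.5 in the reactivated libraries, and that of Senp3 had 8.14 and 8.51 in the quiescent, 8.87 and 8.25 in the activated and 9.01 and 11.04 in the reactivated libraries. At all 3, neither raw reactivated value was below the lowest value of the other states. Near Atp6v1e2, the larger of 2 peaks at Rhoq had 5.41 and 5.90 in the quiescent, 9.37 and 9.14 in the activated and 7.89 and 9.33 in the reactivated libraries and the smaller 3.09 and 3.36 in the quiescent, 4.66 and 5.08 in the activated and 4.09 and 4.20 in the reactivated libraries. Near Grn, a start of Fam171a2 had 4.45 and 3.90 in the quiescent, 7.24 and 5.13 in the activated and 5.22 and 5.18 in the reactivated libraries. Near Man2b1, the site at the small gene Gm23388 had 7.76 and 5.20 in the quiescent, 8.49 and 8.98 in the activated and 5.20 and 6.38 in the reactivated libraries, with the lowest reactivated minus activated difference near any member, -1.26 (SE 0.22, limma adjusted p = 9.0e-04). Near Cd63, the starts of Gdf11 and of Bloc1s1 had 5.26 and 5.05 in the quiescent, 6.18 and 4.08 in the activated and 5.84 and 6.29 in the reactivated libraries, and 9.61 and 9.72 in the quiescent, 10.4 and 8.21 in the activated and 10.7 and 11.95 in the reactivated libraries. Near Atp6v1g2, the start of Ddx39b had 6.23 and 6.01 in the quiescent, 7.90 and 6.61 in the activated and 6.37 and 6.66 in the reactivated libraries. Of the stronger promoters, Tex261 (near Atp6v1b1) had 9.83 and 11.02 in the quiescent, 13.7 and 11.6 in the activated and 11.6 and 14.9 in the reactivated libraries. At Pdia6 (near Atp6v1c2) the values were 14.5 and 12.6 in the quiescent, 14.1 and 10.96 in the activated and 16.4 and 19.5 in the reactivated libraries. Those of Eif4a3 (near Gaa) were 9.10 and 7.94 in the quiescent, 9.10 and 8.89 in the activated and 10.6 and 12.7 in the reactivated libraries. Nup54, near Scarb2, was among the strongest of these sites, with 14.5 and 16.4 in the quiescent, 15.6 and 14.6 in the activated and 17.6 and 18.8 in the reactivated libraries. At Senp3, Bloc1s1, Pdia6, Eif4a3 and Nup54, both raw reactivated values were above all 4 values of the other states. The 1 that was called higher was the start of Eif3c near Cln3, with 3.81 and 3.06 in the quiescent, 5.70 and 5.28 in the activated and 11.7 and 9.18 in the reactivated libraries and a reactivated minus quiescent difference of 0.72 (SE 0.23, limma adjusted p = 0.017).

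Reactivated-only sites, with a peak in both reactivated libraries and in none of the 4 others, numbered 44 of the 230 classed sites near members (19.1%, against 25.2% genome-wide, not matched for place) and lay near 31 of the 59 genes (52.5%, against 44.5%). When each list was limited to the length of the shortest, 5 were left, a count given without the genome-wide share under that limit. The 2 strongest lay near Ctsa, at the start of Pltp with 7.45 and 7.02, and near Ctsl, 26.6 kb from its start with 7.20 and 6.78.

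**Figure D4:**
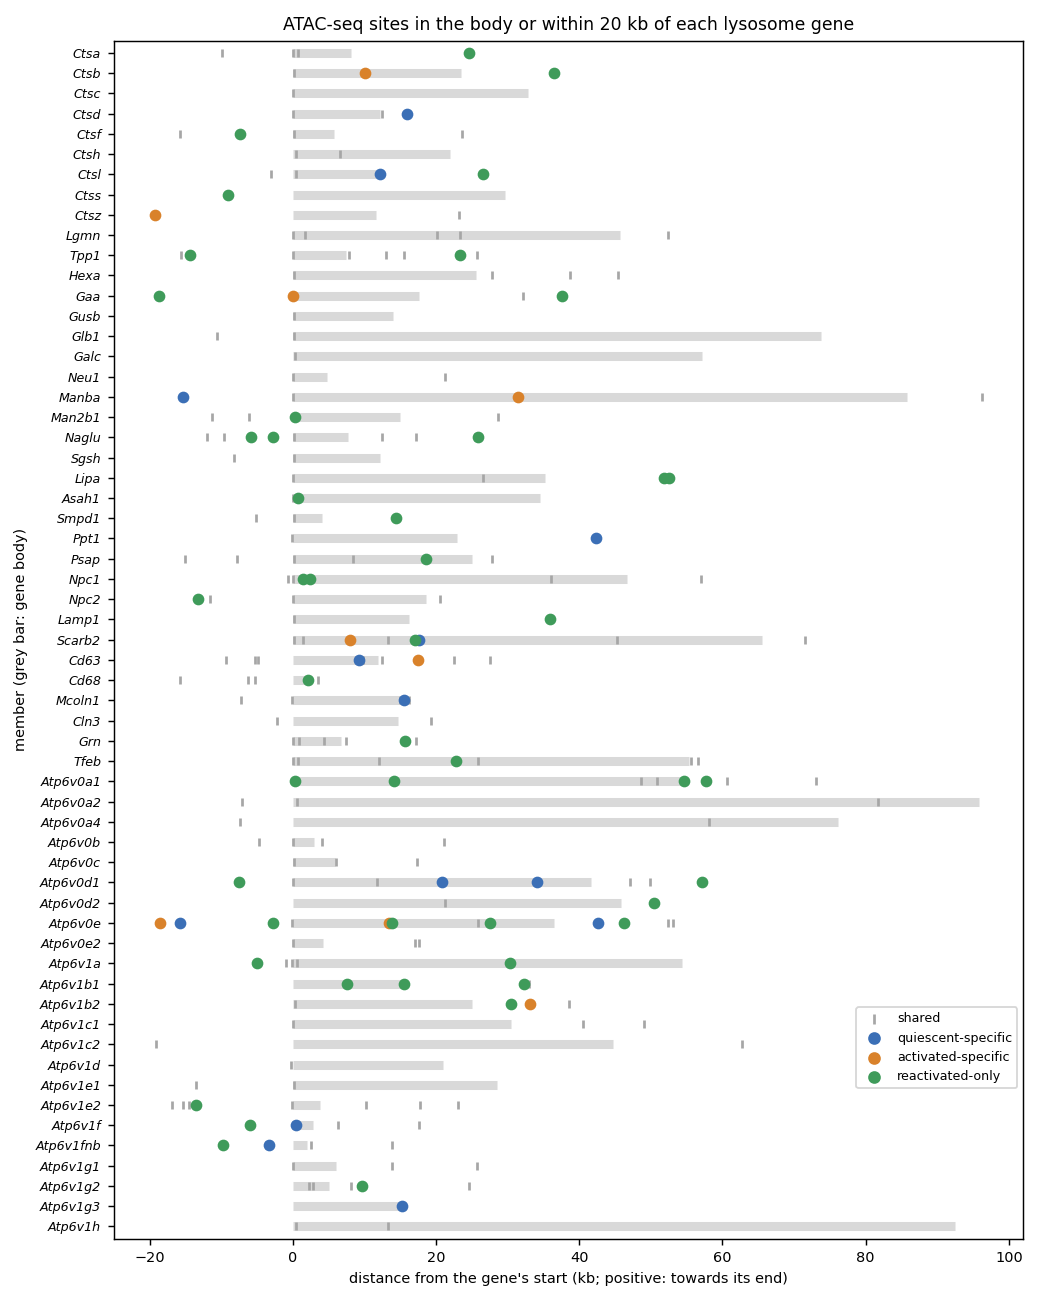
Classed ATAC-seq sites by their distance in kb from the 5′ start of each of the 59 genes, with the gene body as a grey bar. Grey ticks are shared sites and dots are quiescent-specific, activated-specific and reactivated-only sites: 164 sites are shared, and the 22 specific ones are spread over 16 genes.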

How the data were processed

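ATAC-seq was analysed in 6 and H3K4me3 ChIP-seq in 2 libraries of NSPCs. Per the labels and the methods, the authors trimmed reads with Trim Galore 0.4.0, aligned them to mm10 with Bowtie2 2.2.5 and used Picard 1.88 and SAMtools 1.3.1; they called peaks with MACS, and H3K4me3 as broad peaks against input DNA. The deposited fold enrichment is a linear ratio of pileup to background within each library. The −log10 p and q values, as deposited, were used for filters and to recover pileups (at least 99.8% of 3000 sampled peaks per library matched a whole pileup within 0.02%). The score that the authors deposited is a rescaled q and was not used. Input libraries have no peak list here. Depth is known only through these pileups.

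Each gene was given, per library, the strongest peak overlapping by 1 bp a window of 1 kb around any GENCODE M21 start. Log2 fold enrichments were centred on the library median and tested with limma 3.58.1 (R 4.3.3; trended variance, 3 states in one fit, Benjamini-Hochberg over all genes or sites, threshold 0.05). Genes or sites without a peak in 1 or more of the libraries were not fitted. The code was tested on simulated data. Values in every library were given for members lacking a peak somewhere, members called, the 10 largest separated differences between quiescent and activated NSPCs, 7 genes whatever their values (Tfeb, Lamp1, Ctsb, Ctsd, Mcoln1, Grn, Psap), called sites, and the 15 state-specific sites with the highest mean percentile. The members and lists were chosen with earlier results of these data known. Replicate deviations showed no pairing of the libraries by replicate number, and a shared preparation was not tested.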

Additional observations from a re-analysis of the deposited data

How the results depend on the processing

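Depth is known through pileups alone. A missing peak is one that did not pass the call against its local background, and the pileup there need not be below 16 to 25 reads. The lowest fold enrichment of a called peak was 1.09 to 1.33 by library, below the 1.99 to 2.43 at those pileups over the library-wide background. The number of members with a promoter peak in all libraries stayed at 43 to 48 and that with H3K4me3 in both states at 46 to 50. Leaving out each library gave 0 to 2, 0 to 11 and 3 to 14 called promoters for activated against quiescent, reactivated against activated and reactivated against quiescent NSPCs, and 2 to 6, 1 to 26 and 13 to 40 called sites. It gave 13 to 33 quiescent-specific, 9 to 27 activated-specific and 46 to 85 reactivated-only sites, since fewer libraries then have to hold or to lack a peak. Without centring, the called promoters were 0, 36 and 41, the called sites for the reactivated comparisons 64 and 85 (1 of them lower), and 3 of 50 genes (6.00%, against 5.60% of all genes) had H3K4me3 past 1.5-fold lower in activated NSPCs; Asah1 turned to 0.18 and 0.11 and Atp6v1d to 0.32. With peaks of −log10 q of 10 or more, 1 of 43 promoters was called between quiescent and activated NSPCs (2.33%, against 1.43% of all genes). With lists limited to the shortest it was 1 of 46 (2.17%, against 2.52%). With starts of protein-coding transcripts only it was 1 of 48 (2.08%, against 2.31%). At that −log10 q, called sites were 3, 17 and 20, and 5 sites were quiescent-specific. These site counts are given without genome-wide shares and are not read as particular to the members. With missing peaks set to the lowest fold enrichment, 6 promoters were called for reactivated against activated NSPCs and 9 (4 higher, 5 lower) for reactivated against quiescent NSPCs. Called sites in that setting were 19, 120 and 147, again given without genome-wide shares and not read as particular to the members. Quantile normalization gave 21 sites for reactivated against quiescent NSPCs. Restricting sites to the gene body left 6 quiescent-specific, 5 activated-specific and 14 reactivated-only sites, 5 kb on each side 5 activated-specific and 21 reactivated-only, and 50 kb gave 33, 22 and 84. Limiting the lists left 5 reactivated-only sites. Neither this count nor those by distance has a genome-wide share, and they are not read as particular to the members. The cause of these changes was not tested where none is given. Correlations of replicate deviations were 0.0021, 0.0335 and -0.0209, so the deviations showed no pairing by replicate number. Whether libraries of the same number were prepared together cannot be told from this. The study blocked on replicate when it compared young and old NSPCs, to account for batches of library preparation. With a replicate block, 2 promoters were called between quiescent and activated NSPCs (4.17%, against 2.89% of all genes). Against activated and quiescent NSPCs, reactivated NSPCs then had 10 and 11 called promoters. Called sites were 7, 26 and 33 in the same order of comparisons. The last 2 sets of counts are given without shares over all genes or sites and are not read as particular to the members. The single common site per promoter and the 5′ start only were chosen after seeing the data.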

Other observations

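Tfe3, the X-linked relative of Tfeb that was left out of the 59 genes, had promoter peaks of 10.6 and 9.40 in the quiescent, 14.9 and 8.70 in the activated and 13.2 and 13.6 in the reactivated libraries, which lay between the 87.6 and 98.4 percentile of the peaks of each library. H3K4me3 at its promoter was 25.5 and 26.7 in quiescent and activated NSPCs. At 12 of the 59 genes the promoter window holds a start of another protein-coding gene (among them Ctsa with Neurl2, Glb1 with Tmppe, Npc2 with Isca2 and Atp6v1b2 with Slc18a1), and a peak there cannot be assigned to one of the 2 genes.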
